A study of Mus musculus with 72 samples.

Results

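The cytosolic ribosomal protein genes code for the proteins of the small (40S) and large (60S) subunits of the ribosome in the cytosol, and they were examined here in mouse liver over the day under 4 feeding paradigms. The members were the protein-coding genes whose symbol is Rpl or Rps with a number and at most 1 closing letter (a, x, y or l), together with Rplp0, Rplp1, Rplp2 and Rpsa, and whose mean level over all libraries was at least 10 CPM (a gene's counts scaled to a common library total). Of 51912 genes in the count table, 80 protein-coding genes met the symbol rule and 74 of these met the level rule, 30 of the 40S and 44 of the 60S subunit. All 74 members passed the filter on low counts, which left 12712 genes tested. Just inside the level rule lay Rpl15, at 10.6 CPM, and Rpl35, at 11.1 CPM. Just outside it lay Rpl29, at 6.70 CPM, Rps6, at 2.37 CPM, and Rpl24, at 2.14 CPM, while Rpl3l, Rpl39l and Rpl10l were at 0.125, 0.0555 and 0.0104 CPM. The rule used no difference between times or paradigms.

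The data were 72 libraries of 3′ mRNA sequencing, in which a read comes from the end of a transcript, made from liver RNA of wild-type male C57BL/6J mice that were 43 to 49 days old at the start. The mice lived in 12 h of light and 12 h of darkness with water at all times. Each of 4 paradigms was sampled at 6 zeitgeber times (ZT, hours after lights on: ZT02, 06, 10, 14, 18 and 22) with 3 replicates, so that each paradigm had 18 libraries. The paradigms were arrhythmic feeding with adaptation incomplete (here incompletely adapted arrhythmic), arrhythmic feeding, night-restricted feeding and ad libitum feeding. Neither the meal times nor the test of adaptation is given in the sources used here. No label states that replicates were separate animals, and the p-values therefore measure only the spread between these libraries.

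Ribosomal protein genes are among the most highly transcribed housekeeping genes, and their products are built into subunits with ribosomal RNA, largely in the nucleolus. Their mRNAs typically begin with a C and an unbroken stretch of pyrimidines, the 5′ terminal oligopyrimidine (TOP) motif, through which the kinase complex mTORC1 and the RNA-binding protein LARP1 control their translation. In mouse liver their translation is known to follow feeding through this route, and mRNA counts such as those used here do not measure translation.

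The promoters are shown because the TOP motif is the feature that the family is known to share. The first 3 genes below passed the test of a rhythm difference between arrhythmic and night-restricted feeding with all libraries. None of the 3 passed it when 5 libraries of extreme base composition, named below, were left out. A start site was found in the RefSeq promoter table (GRCm38.p6) for 55 of the 74 members. A run of at least 5 bases of C or T, opening with C within 10 bases of the annotated start on the gene's own strand, was present in 34 of the 55, or 61.8%, beside 34.4% of 27025 genes in that table. A run of at least 8 bases was present in 22 of the 55 members and in 9.43% of all genes in the table. Each line gives 50 bases before the start and 20 from the start onward, 5′ to 3′ on the gene's strand, with the run in capitals.
Rpl14 (chr9:120571467-120571536, plus strand): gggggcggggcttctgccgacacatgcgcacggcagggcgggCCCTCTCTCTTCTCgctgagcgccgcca
Rpl27a (chr7:109519145-109519214, plus strand): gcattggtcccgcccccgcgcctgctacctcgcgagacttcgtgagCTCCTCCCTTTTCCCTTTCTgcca
Rpl26 (chr11:68901516-68901585, plus strand): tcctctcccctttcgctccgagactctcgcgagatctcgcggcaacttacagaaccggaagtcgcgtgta
Rps27 (chr3:90213629-90213698, minus strand): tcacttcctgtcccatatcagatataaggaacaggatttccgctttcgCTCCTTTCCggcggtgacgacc
Rps27l (chr9:66946036-66946105, plus strand): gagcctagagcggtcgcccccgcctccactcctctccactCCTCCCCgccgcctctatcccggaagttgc
The run was 14 bases long in Rpl14, 20 in Rpl27a, 9 in Rps27 and 7 in its paralog Rps27l, and no such run was found in the window of Rpl26. In Rps27l the run was counted from the edge of the 10-base window. The pyrimidines directly before its capitals extend it, so the whole run is longer than the part counted. Within 250 bases before to 50 after the start, on either strand, CCGGAAG, the core bound by ETS family factors, was present in 41.8% of members and 9.93% of all genes in the table. AAGATGG, the core bound by YY1, was present in 16.4% of members and 7.28% of all, and the closing AAG of the ETS core can be its opening letters. CACGTG, the E-box bound by the clock factors CLOCK and BMAL1, was present in 10.9% of members and 8.09% of all, and TATAAA in 10.9% of members and 15.7% of all. These matches describe letters in a window and were not tested against the levels.

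The libraries held 4342026 to 12286021 counts, with a median of 6992793. The 74 members took 2.54% ± 0.18 of the counts of a library (SD, n = 72), with 1.17% in the 40S and 1.37% in the 60S genes. The summed level of 6 hepatocyte markers lay between 17905 and 34491 CPM in every library, that of 5 erythroid markers between 1174 and 6388 CPM and that of 7 Kupffer cell markers between 345 and 2346 CPM, while 4 pancreatic acinar markers reached at most 8.55 CPM. Some libraries stood apart in base composition. The slope of a library's log2 level on the GC content of transcript ends, over tested genes that are no members, had an SD of 0.148 log2 per SD of GC over the 72 libraries. The 5 libraries farthest from the median were replicate 1 of night-restricted feeding at ZT22, ZT06, ZT02 and ZT18, with slopes of 0.405, 0.350, 0.349 and 0.261, and incompletely adapted arrhythmic replicate 1 at ZT10, with -0.306. In 35 of the 74 members the 4 night-restricted libraries did not overlap with the other 8 night-restricted libraries of those times, being lower in 30 members and higher in 5. Member calls under night-restricted feeding or against it are therefore given with and without these 5 libraries where they are described one by one.

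A second limit touches reads shared with copies. Processed copies of ribosomal protein genes are spread over the mouse genome, and 57 of the 74 members had at least 1 other row in the table, 390 rows in all, that shared at least 10% of the exact 50-base windows in the member's last 300 bases. In 18 members the member's own row held less of the summed CPM than its copies. Rpl15 held 3.7% of that sum in its own row, Rpl35 3.1%, Rpl10a 3.9%, Rpl19 16.9% and Rps9 16.8%. No window was shared in 14 members, among them Rpl14, Rpl27a, Rps20, Rpl4, Rpl5 and the stalk protein gene Rplp0. The treatment of reads that fit several rows is not given in the sources used here.

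As a group the members took a mean share of 2.48% to 2.66% of the liver's mRNA counts in the 4 paradigms, and differences in this share were not tested. The share was 2.48% ± 0.18 under incompletely adapted arrhythmic, 2.50% ± 0.17 under arrhythmic, 2.66% ± 0.16 under night-restricted and 2.54% ± 0.14 under ad libitum feeding (SD, n = 18 each). The lowest, median and highest libraries were 2.11%, 2.49% and 2.73% under incompletely adapted arrhythmic, 2.13%, 2.54% and 2.75% under arrhythmic, 2.32%, 2.64% and 2.93% under night-restricted and 2.23%, 2.54% and 2.81% under ad libitum feeding. The 4 ranges overlapped widely, and the gap between the lowest and the highest mean was about 1 SD. That SD is the spread of single libraries and not the error of a mean, so it does not show that the means are equal. With the copies' rows added the share was 3.83% under incompletely adapted arrhythmic, 3.84% under arrhythmic, 4.16% under night-restricted and 3.93% under ad libitum feeding. Over the 6 times the mean share stayed between 2.60% and 2.73% under night-restricted and between 2.47% and 2.67% under ad libitum feeding. It stayed between 2.44% and 2.65% under arrhythmic and between 2.35% and 2.57% under incompletely adapted arrhythmic feeding. The SD of the 3 libraries of a time ran from 0.020 percentage points (ad libitum ZT22) to 0.296 (night-restricted ZT22). The differences between times were larger than some of these SDs and smaller than others. Shares of all counts cannot tell fewer cells of a type from less RNA per cell.

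**Figure D1:**
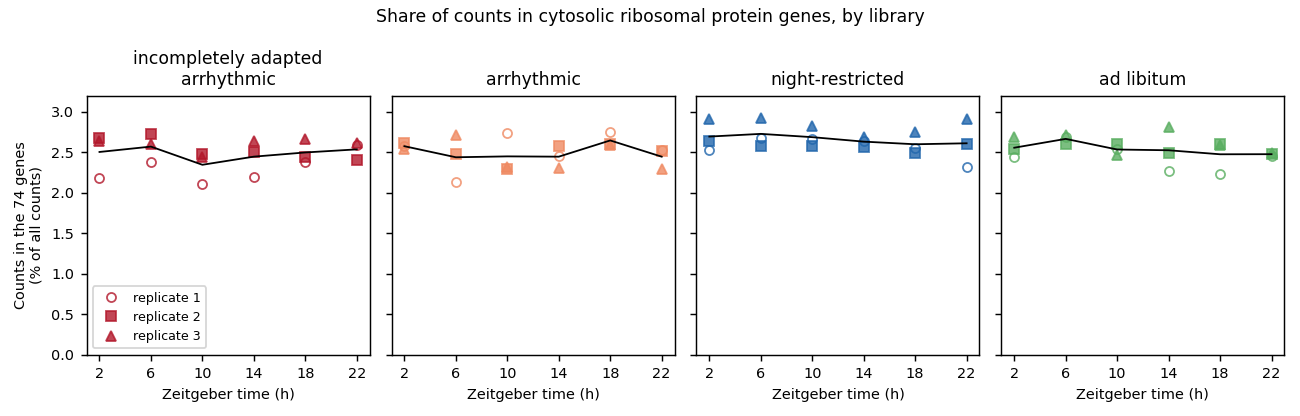
Counts in the 74 cytosolic ribosomal protein genes as a percentage of all counts of a library (y axis) against zeitgeber time in hours (x axis), 1 panel per feeding paradigm, 1 symbol per library with replicate 1 drawn hollow, and the line through the mean of 3 libraries. The shares run from 2.11% to 2.93% and show no common daily course.

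Within that sum the single genes did not all move together. Over the 72 libraries the median correlation of log2 levels between members was 0.165 over 2701 pairs, and 58.8% of pairs were above 0. The points share libraries, depth and base composition, so the value is a description. A median over all pairs can also be low where groups of members move together in opposite directions. By the rule for named genes, the 3 members of highest mean level were Rplp1, at 1566 CPM, Rps20, at 1235 CPM, and Rps25, at 1072 CPM. The 3 lowest were Rpl15, Rpl35 and Rpl10a, at 15.4 CPM or less, and these are genes whose copies' rows held nearly all of the shared signal. Counts of transcript ends were not divided by length, and levels are therefore compared between paradigms and not between genes.

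The first question was which members had a 24 h rhythm in each paradigm. Under night-restricted feeding 18 of 74 members passed an adjusted p of 0.05 in edgeR's quasi-likelihood test (24.3%), beside 29.9% of all genes tested, and under the other paradigms no member passed. Leaving out 1 library, night-restricted ZT02 replicate 1, gave 11 members. That count is given without the share of all genes, so it does not separate a change in the members from a change in all genes. Within a paradigm libraries with the same replicate number deviated together, with a median correlation of 0.242 over genes against -0.116 between numbers, and with a replicate block within each paradigm 29 members passed, beside 41.9% of all genes, and 1 each under arrhythmic and ad libitum feeding, beside 6% and 14.1%. Under ad libitum feeding the count was 0 of 74, beside 7.48% of all genes, with 2 members at an unadjusted p under 0.05 and 0 in DESeq2. Under arrhythmic feeding it was 0 of 74, beside 3.37% of all genes, with 6 members at an unadjusted p under 0.05 and 0 in DESeq2, and under incompletely adapted arrhythmic feeding it was 0 of 74, beside 3.63%, with 0 members at an unadjusted p under 0.05 and 0 in DESeq2. The members' median range, the peak-to-trough difference of the fitted curve on the log2 scale, was 0.25 under incompletely adapted arrhythmic, 0.28 under arrhythmic, 0.44 under night-restricted and 0.36 under ad libitum feeding. Over all tested genes the medians were 0.42, 0.43, 0.70 and 0.52 in the same 4 paradigms, so the members' medians were lower in each. Since a range has no sign, noise by itself yields a value above 0. By subunit, 7 of 30 40S genes and 11 of 44 60S genes were called under night-restricted feeding, with median ranges of 0.49 and 0.43.

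**Figure D2:**
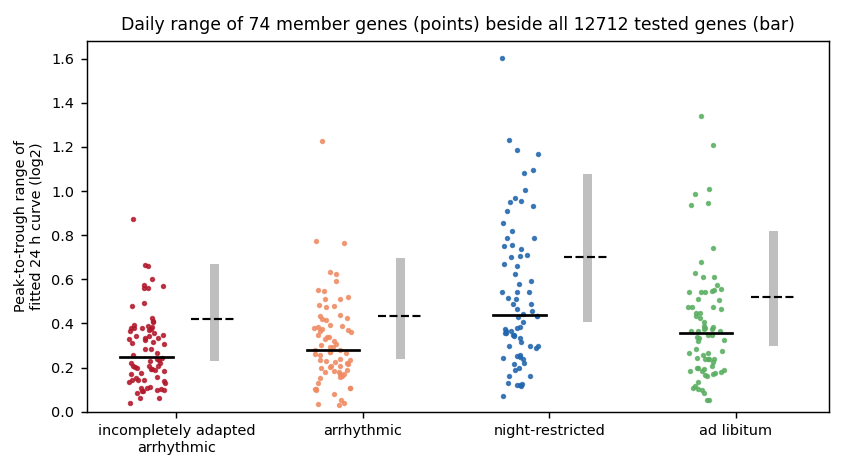
Peak-to-trough range of the fitted 24 h curve in log2 units (y axis) by feeding paradigm (x axis). Points are the 74 members with a solid line at their median, and the grey bar beside them is the interquartile range of all 12712 tested genes with a dashed line at their median, which lies above the members' median in each paradigm.

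The called members under night-restricted feeding fell into opposite phases. In 10 of the 18 the fitted peak lay between ZT18 and ZT06, from late night to early day, among them Rpl14, Rpl18, Rpl19, Rpl26, Rpl27a, Rpl8 and Rplp1 of the 60S and Rps20 and Rps9 of the 40S subunit. In the other 8 it lay between ZT06 and ZT18, among them Rpl39, Rpl4, Rpl5 and Rpl9 of the 60S and Rps27, Rps27l and Rps7 of the 40S subunit. The night and morning genes had a median GC content of 53.7% in the last 300 bases, and the day and evening genes one of 40.8%, beside 46.3% in the 56 members not called. The libraries of highest GC slope are at 4 of the 6 times, ZT18, ZT22, ZT02 and ZT06. When the 5 libraries were left out 7 members were called, beside 23.6% of all genes: Rpl14, Rpl26, Rplp1 and Rps9 of the first phase, Rps27 and Rps27l of the second, and Rpl32. When all libraries were kept and their GC slope entered the fit as a term, 18 members were called, 14 of them among the first 18, beside 33.2% of all genes.

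**Figure D3:**
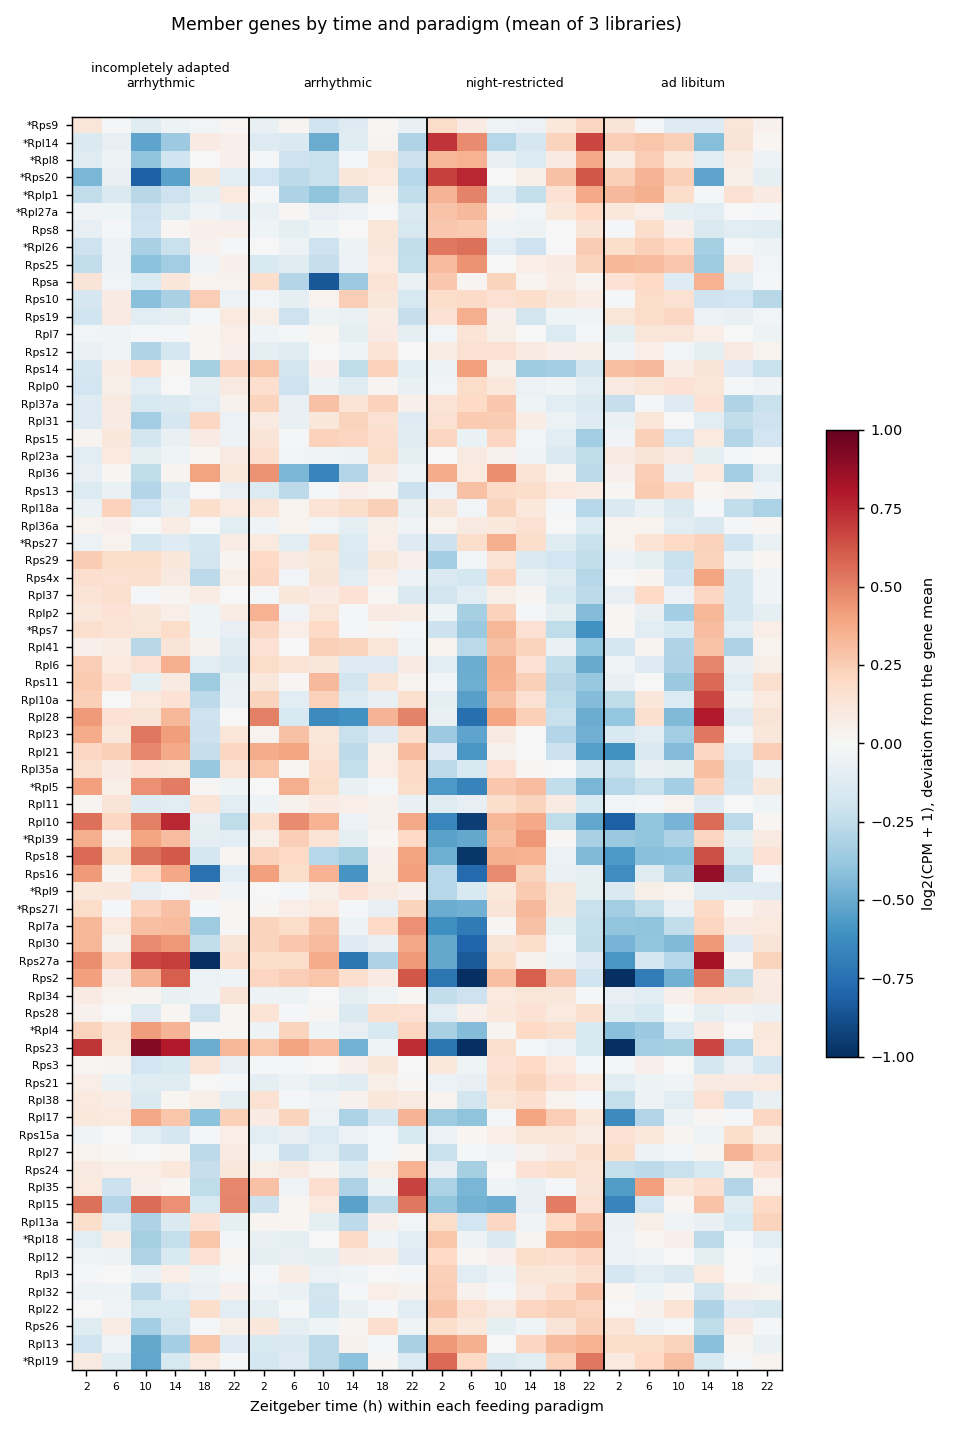
Deviation of log2(CPM + 1) from the gene's mean (colour) for 72 of the 74 members (rows, ordered by fitted peak time under night-restricted feeding) at 6 zeitgeber times in each of 4 feeding paradigms (columns, means of 3 libraries); an asterisk marks 16 of the 18 members called rhythmic under night-restricted feeding. The night-restricted block splits into genes high at ZT22 to ZT06 and genes low at those times, and the inverse pattern is seen at ZT14 under ad libitum and at ZT10 under incompletely adapted arrhythmic feeding. The split follows in part from the row order, also for members not called. ZT22, ZT02 and ZT06 each hold a night-restricted library of extreme GC slope. Slopes were -0.306, -0.155 and -0.121 at incompletely adapted arrhythmic ZT10 and -0.181, -0.023 and 0.035 at ad libitum ZT14. Their part in the pattern was not tested.

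Rpl14, a protein of the 60S subunit (chr9:120571444-120574654, plus strand), had the largest range of the called members. Under night-restricted feeding its level was 407, 298 and 365 CPM at ZT02, 379, 187 and 334 CPM at ZT06, 138, 177 and 215 CPM at ZT10, 173, 181 and 220 CPM at ZT14, 312, 182 and 260 CPM at ZT18 and 456, 239 and 336 CPM at ZT22, replicates 1 to 3 in turn. All 3 libraries of ZT02 and of ZT22 were above all 6 of ZT10 and ZT14, and at ZT06 and ZT18 replicate 2 overlapped with them. The range was 1.23 ± 0.25 log2 (SE) with a peak at ZT0.5 (edgeR adjusted p = 0.000744), and without the 5 libraries it was 0.86 (adjusted p = 0.0228). Under arrhythmic feeding the levels were 141, 174 and 275 CPM at ZT02, 160, 153 and 145 CPM at ZT10 and 135, 207 and 184 CPM at ZT22, and the range was 0.30 ± 0.25 (edgeR adjusted p = 0.784). Those libraries overlapped between times.

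Rps27 and Rps27l are paralogs that code for alternative forms of a 40S protein, and Rps27l is known as a target of p53. Under night-restricted feeding Rps27l was at 57.9, 121 and 113 CPM at ZT02 and 175, 194 and 149 CPM at ZT14. All libraries of ZT14 were above those of ZT02. Its range was 0.82 ± 0.20 with a peak at ZT14.6 (edgeR adjusted p = 0.00397) and 0.65 without the 5 libraries (adjusted p = 0.0331). Rps27 was at 241, 228 and 169 CPM at ZT10 and 140, 141 and 142 CPM at ZT22, again without overlap, and its range was 0.54 ± 0.18 with a peak at ZT9.8 (edgeR adjusted p = 0.0459). The range of Rps27 without them was 0.66 (adjusted p = 0.0221), but its own row held 49.6% of the CPM it shares with copies, and with copies summed its adjusted p was 0.38. Both paralogs thus peaked in the day or early night, and neither was called in another paradigm.

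Rpl26, a 60S protein gene, was at 407, 320 and 394 CPM at ZT02 and 216, 217 and 239 CPM at ZT14 when feeding was restricted to the night, and these libraries did not overlap. Its range was 0.93 ± 0.23 with a peak at ZT2.2 (edgeR adjusted p = 0.00503), and 0.66 without the 5 libraries (adjusted p = 0.0472). Rplp1, which with Rplp2 and Rplp0 forms the stalk that recruits elongation factors, was at 2229, 1889 and 2410 CPM at ZT06 and 1113, 1302 and 1504 CPM at ZT14. Its libraries at ZT06 were all higher, and its range was 0.79 ± 0.21 with a peak at ZT1.5 (edgeR adjusted p = 0.0124), or 0.75 without the 5 libraries (adjusted p = 0.0390). The other stalk genes did not pass, with ranges of 0.25 ± 0.21 for Rplp0 and 0.35 ± 0.25 for Rplp2 (edgeR adjusted p = 0.592 and 0.484).

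Some other called members did not pass without the 5 libraries. Rpl5, which carries the 5S ribosomal RNA into the large subunit and binds Mdm2, was at 14.5, 12.4, 26.6 and 11.7 CPM in replicate 1 of night-restricted feeding, in the order ZT02, ZT06, ZT18, ZT22, and between 31.2 and 63.6 CPM in the other 8 libraries of those times. The 4 libraries were all below the other 8. Its range was 0.97 ± 0.29 with all libraries (edgeR adjusted p = 0.0211) and 0.58 without the 5 (adjusted p = 0.190), but 0.77 with a term for GC slope (adjusted p = 0.0220). Rps20, a protein of the 40S head, had a range of 0.95 ± 0.30 (edgeR adjusted p = 0.0388) and 0.41 without them (adjusted p = 0.469), and 0.39 with that term (adjusted p = 0.158). Rpl39, a small protein at the exit tunnel, had 1.0 ± 0.30 (edgeR adjusted p = 0.0253) and 0.59 without them (adjusted p = 0.136), and 0.76 with that term (adjusted p = 0.0234). Rpl4, which lines that tunnel, had 0.58 ± 0.18 and 0.62 without them, with adjusted p of 0.0298 and 0.0534 in edgeR. Its range was no smaller without them, it was called with all of replicate 1 left out (0.68, edgeR adjusted p = 0.0401), and with that term it was not (0.31, adjusted p = 0.188).

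Rpl19, a 60S protein at the bridges between subunits, had most of its shared signal in the rows of copies. Its own row averaged 17.9 CPM and its 6 copies together 87.8 CPM. The range of the own row was 0.95 ± 0.22 under night-restricted feeding with a peak at ZT24.0 (edgeR adjusted p = 0.00333). It was 0.65 and not called without the 5 libraries (edgeR adjusted p = 0.0611), and 0.73 with a term for GC slope (adjusted p = 0.00449). With copies summed the range was 0.24 (adjusted p = 0.460), so the summed signal was not called. The mean level of the own row differed by -0.49 for arrhythmic over night-restricted feeding (edgeR adjusted p = 0.00556). That difference was -0.31 without the 5 libraries (edgeR adjusted p = 0.151) and -0.36 with a term for GC slope (adjusted p = 0.0137).

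In the other paradigms the members of smallest p stayed short of the threshold. Under ad libitum feeding Rpl4 led with a range of 0.50 ± 0.18 and a peak at ZT16.9 (edgeR adjusted p = 0.158), followed by Rps25, Rps27, Rps2 and Rps10, with adjusted p of 0.219 to 0.295. Under arrhythmic feeding Rps13 led with 0.51 ± 0.18 (edgeR adjusted p = 0.221), followed by Rpsa, Rpl9, Rpl11 and Rps12. Under incompletely adapted arrhythmic feeding Rpl19 led with 0.56 ± 0.23 (edgeR adjusted p = 0.394), followed by Rps12, Rpl13a, Rpl12 and Rpl14. Rps2 and Rps23 had wider fitted ranges than most called genes under night-restricted feeding, 1.60 ± 0.56 and 1.17 ± 0.68, and did not pass (edgeR adjusted p = 0.0695 and 0.381). Rps23 was chosen after its values were seen, and in both the 4 night-restricted replicate 1 libraries lay below the other 8 of the same times.

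Whether a rhythm differed between paradigms was tested on the cosine and sine coefficients together. Between arrhythmic and night-restricted feeding 3 of 74 members differed (4.05%, beside 3.89% of all genes): Rpl14, Rpl27a and Rpl26, whose promoters are printed above. Rpl14 and Rpl26 had smaller ranges under arrhythmic feeding, 0.30 ± 0.25 and 0.27 ± 0.23, against 1.23 ± 0.25 and 0.93 ± 0.23 under night-restricted feeding. The size of the difference, taken as the peak-to-trough range of the difference between both fitted curves, was 1.40 log2 for Rpl14 (edgeR adjusted p = 0.0359) and 1.20 for Rpl26 (adjusted p = 0.0485). Rpl27a, a 60S protein gene with the longest run of the promoters printed, was at 614, 612 and 614 CPM at ZT10 under arrhythmic feeding, against 638, 579 and 743 CPM under night-restricted feeding. At ZT06 it was at 573, 623 and 772 CPM under arrhythmic feeding, against 926, 652 and 858 CPM under night-restricted feeding. Its difference was 0.71 (edgeR adjusted p = 0.0389), with a peak at ZT13.2 under arrhythmic and ZT1.8 under night-restricted feeding, but the range under arrhythmic feeding was not called (0.26 ± 0.13), so that peak time is loosely fixed.

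None of these 3 differences held without the 5 libraries, where 0 members were called, beside 2.46% of all genes: the sizes were 1.04 for Rpl14, 0.55 for Rpl27a and 0.92 for Rpl26, and the adjusted p 0.143, 0.121 and 0.121 in edgeR. With a term for GC slope none of the 3 passed (edgeR adjusted p = 0.171 for Rpl14, 0.158 for Rpl27a and 0.255 for Rpl26). The member called with that term was Rpl18 (0.70, edgeR adjusted p = 0.0348). With copies summed the adjusted p of Rpl26 was 0.0784. DESeq2 called 7 members with all libraries (beside 7.47% of all genes). The tests with the other pairs called no member in edgeR. Between incompletely adapted arrhythmic and night-restricted feeding 0 of 74 differed, beside 0.614% of all genes, with 5 members at an unadjusted p under 0.05, led by Rpl26, Rps27 and Rplp1 (adjusted p = 0.235 to 0.297). Between arrhythmic and ad libitum feeding 0 differed, beside 0.0236%, with 4 at an unadjusted p under 0.05, led by Rps25 and Rps20, and for night-restricted against ad libitum feeding 0, beside 0%, with 5, led by Rpl19, Rpl14 and Rpl9. Between incompletely adapted arrhythmic and arrhythmic feeding 0 differed, beside 0%, with 0 at an unadjusted p under 0.05. The count of 18 rhythmic members under night-restricted and 0 under ad libitum feeding thus goes with no member whose own rhythm passed the test of a difference between that pair.

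**Figure D4:**
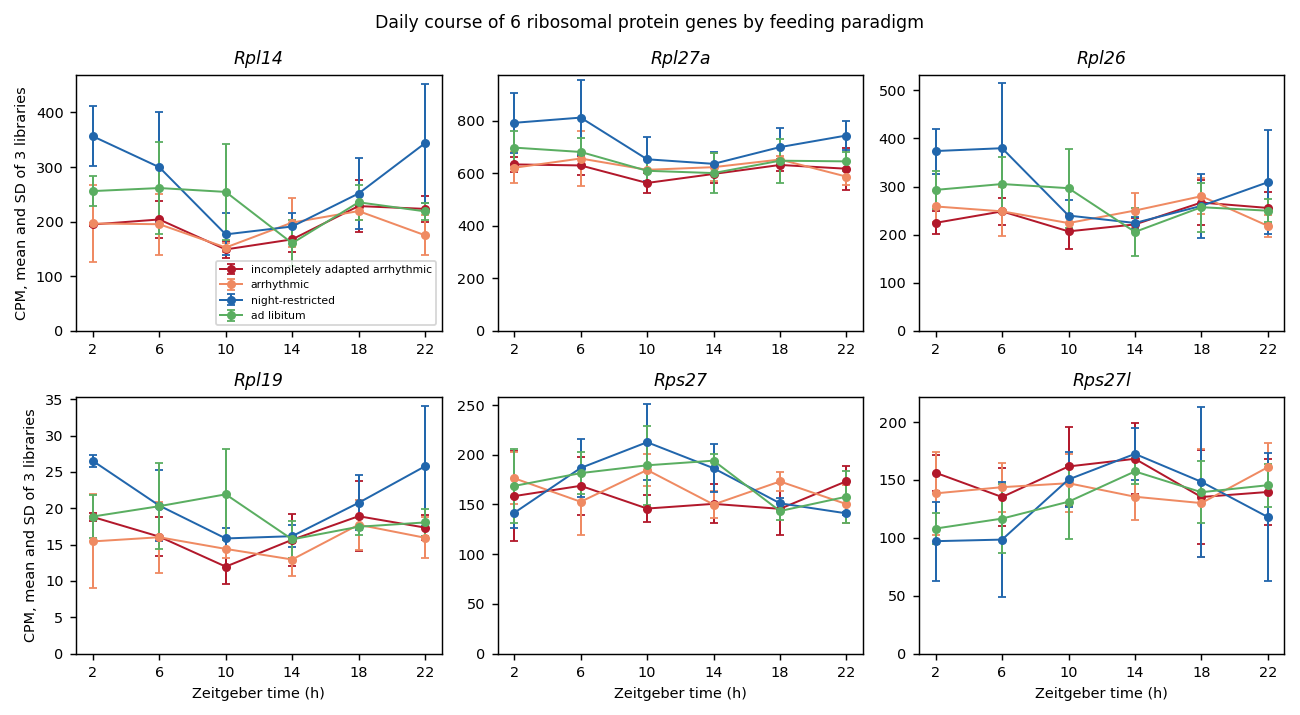
Level in CPM (y axis, mean and SD of 3 libraries) against zeitgeber time in hours (x axis) for 6 members, 1 coloured line per feeding paradigm. Rpl14 and Rpl26 are highest at ZT22 to ZT06 under night-restricted feeding, and Rps27 and Rps27l peak at ZT10 and ZT14 there.

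The second question was whether mean levels over the day differed between paradigms. Between incompletely adapted arrhythmic and night-restricted feeding 20 of 74 members were lower (27.0%, beside 11.2% of all genes) and 2 were higher (2.70%, beside 6.85%). Between arrhythmic and night-restricted feeding 14 members were lower (18.9%, beside 5.16%) and 0 were higher (beside 1.76%, and 6.92% in either direction). The median difference over the members was -0.11 log2 for incompletely adapted arrhythmic and -0.04 for arrhythmic feeding over night-restricted feeding, beside 0.02 and 0.00 over all genes. Both comparisons share the 18 night-restricted libraries. Of the 14 members lower under arrhythmic feeding 6 were of the 40S and 8 of the 60S subunit, and of the 20 lower under incompletely adapted arrhythmic feeding 9 and 11.

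Rps20 had the largest mean level difference among the called members in both. Its lowest, median and highest libraries were at 423, 914 and 1457 CPM under incompletely adapted arrhythmic, 552, 1109 and 1614 CPM under arrhythmic, 921, 1427 and 3053 CPM under night-restricted and 745, 1185 and 2012 CPM under ad libitum feeding. The paradigms overlapped, with the highest value in a night-restricted library. The difference was -0.81 ± 0.15 log2 for incompletely adapted arrhythmic over night-restricted feeding (edgeR adjusted p = 0.000337) and -0.62 ± 0.15 for arrhythmic over night-restricted feeding (adjusted p = 0.00787). Night-restricted replicate 1 held 1825 to 3053 CPM at the 4 times named above, and without the 5 libraries the differences were -0.46 and -0.31 (adjusted p = 0.0722 and 0.291). With all libraries and a term for GC slope the differences were -0.47 and -0.37 and passed (edgeR adjusted p = 0.000428 and 0.00566).

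Rpl14 was lower by 0.54 log2 units under incompletely adapted arrhythmic feeding (edgeR adjusted p = 0.00299) and by 0.55 under arrhythmic feeding (adjusted p = 0.00581), with means of 194.5 ± 37.6 CPM under incompletely adapted arrhythmic, 189.5 ± 42.8 CPM under arrhythmic, 269.8 ± 93.9 CPM under night-restricted and 231.1 ± 59.0 CPM under ad libitum feeding (SD, n = 18 each). Rpl27a differed by -0.34 ± 0.06 for incompletely adapted arrhythmic (edgeR adjusted p = 0.000406) and -0.28 ± 0.06 for arrhythmic over night-restricted feeding (adjusted p = 0.00630). Neither passed without the 5 libraries in either pair, with the nearest at an adjusted p of 0.0527 (Rpl27a, incompletely adapted arrhythmic over night-restricted feeding). With a term for GC slope Rpl27a passed in both pairs, at -0.23 and -0.21 (edgeR adjusted p = 0.00477 and 0.00790). Rpl14 then passed for arrhythmic feeding (-0.37, edgeR adjusted p = 0.00750) but not for incompletely adapted arrhythmic feeding (-0.29, adjusted p = 0.0634).

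Rps21, a small 40S protein, and Rpl32, a 60S protein, were the members called in both pairs with and without the 5 libraries. Rps21 ranged over 657, 869 and 985 CPM (lowest, median and highest) under incompletely adapted arrhythmic, 702, 829 and 1018 CPM under arrhythmic and 515, 983 and 1166 CPM under night-restricted feeding. The medians were lower in both arrhythmic paradigms, and the ranges overlapped. Its differences were -0.20 ± 0.06 for incompletely adapted arrhythmic over night-restricted feeding (edgeR adjusted p = 0.0139) and -0.18 ± 0.06 for arrhythmic over night-restricted feeding (adjusted p = 0.0471), and without the 5 libraries -0.28 and -0.27 (adjusted p = 0.000729 and 0.00176). Rpl32 differed by -0.30 ± 0.07 (edgeR adjusted p = 0.00462) and -0.22 ± 0.07 (adjusted p = 0.0463) in the same pairs, and by -0.33 and -0.28 without the 5 libraries (adjusted p = 0.0117 and 0.0461). Rps9 was the remaining member called without them, in arrhythmic over night-restricted feeding alone (-0.25, edgeR adjusted p = 0.0264), but its own row held 16.8% of the CPM it shares with copies. The counts without the 5 libraries were thus 2 for incompletely adapted arrhythmic over night-restricted feeding, beside 1.11% of all genes called in either direction, and 3 for arrhythmic over night-restricted feeding, beside 0.747%. In Rps21, Rpl32 and Rps9 the night-restricted libraries among the 5 lay below the other night-restricted ones of those times. Rps21 was at 515 to 763 CPM in them and 912 to 1166 CPM in the others. Leaving them out raises the night-restricted mean, so a call kept that way is no separate test. Without replicate 1 Rps21 passed in both pairs, but Rpl32 did not for arrhythmic over night-restricted feeding (edgeR adjusted p = 0.186). With a term for GC slope both genes passed in both pairs.

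**Figure D5:**
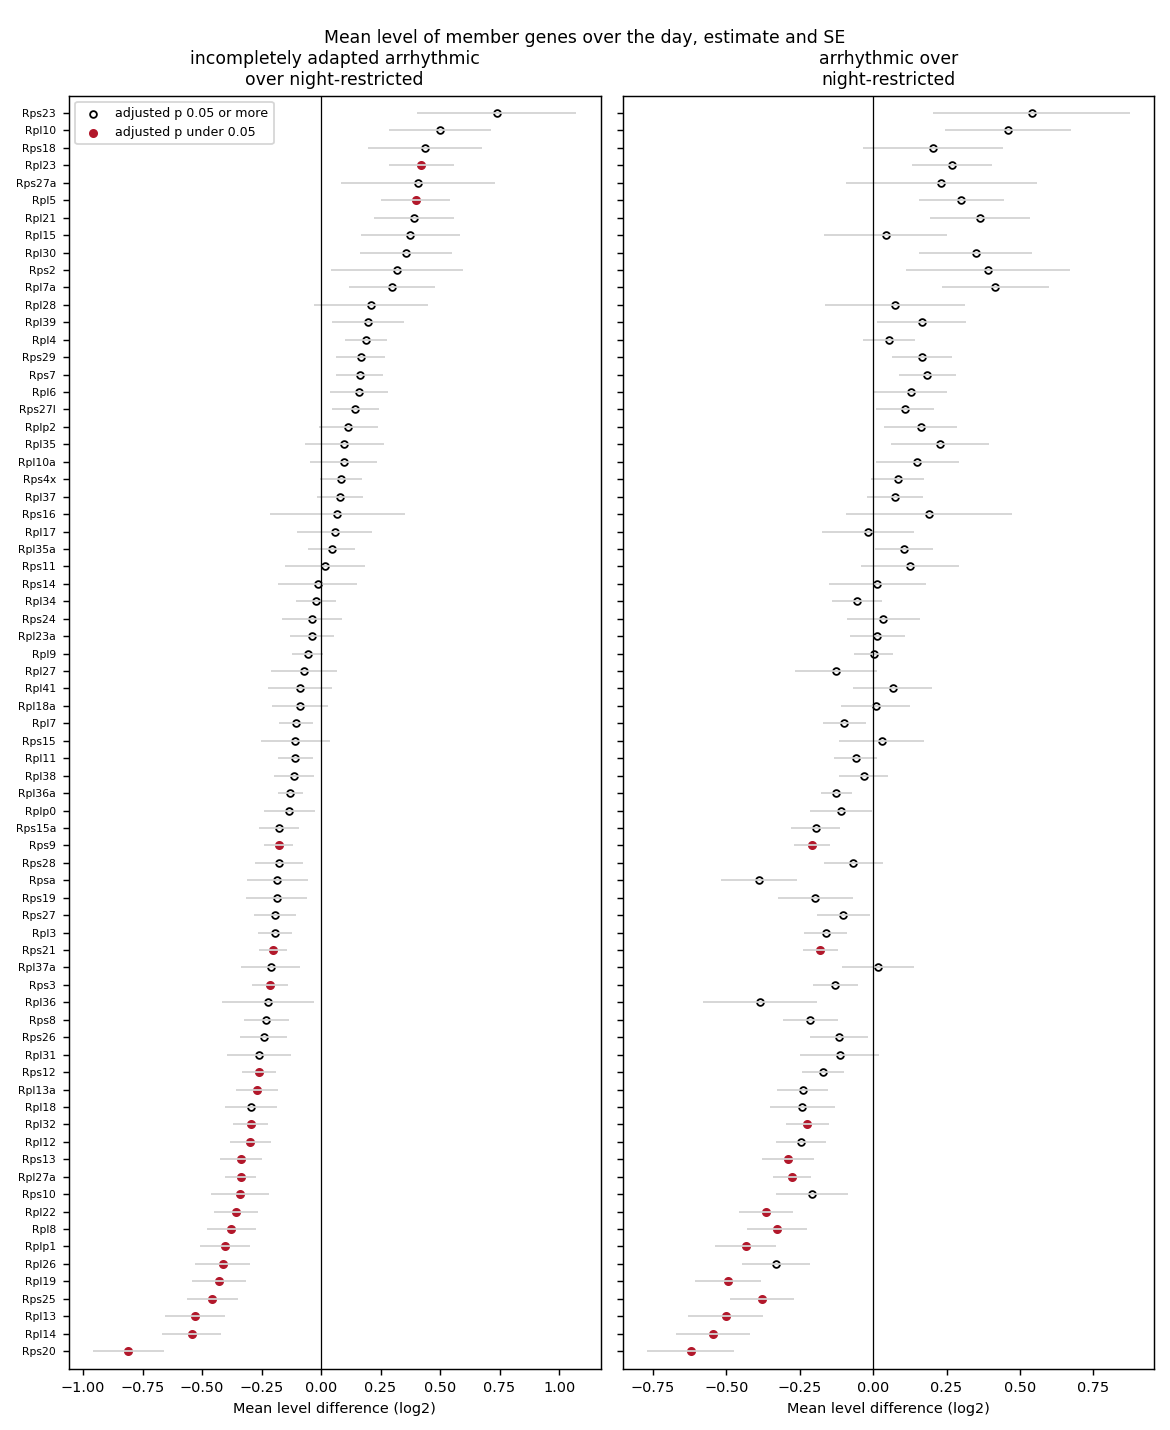
Difference in mean level over the day in log2 units with its SE (x axis) for 72 of the 74 members (rows), for incompletely adapted arrhythmic over night-restricted feeding (left) and arrhythmic over night-restricted feeding (right); filled points passed an adjusted p of 0.05 in edgeR. Filled points lie left of 0 in both panels except for Rpl23 and Rpl5 at the left panel's upper end.

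The 2 members that were higher, Rpl23 and Rpl5, were among the 30 whose 4 night-restricted replicate 1 libraries lay below the other 8. Rpl23, which like Rpl5 binds Mdm2, was at 68.1 to 139.6 CPM in these 4 libraries and at 257 to 357 CPM in the other 8 of the same times. Its difference for incompletely adapted arrhythmic over night-restricted feeding was 0.42 ± 0.14 (edgeR adjusted p = 0.0262), and that of Rpl5 was 0.40 ± 0.14 (adjusted p = 0.0457). Left without the 5 libraries, the differences were 0.19 and 0.16 and did not pass (edgeR adjusted p = 0.484 and 0.631). With a term for GC slope they were 0.24 and 0.19 and did not pass either (edgeR adjusted p = 0.225 and 0.422).

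Rplp1 was the only member whose mean level was called different between arrhythmic and ad libitum feeding. Its lowest, median and highest libraries were at 804, 1236 and 2255 CPM under arrhythmic, 1113, 1806 and 2410 CPM under night-restricted and 1453, 1667 and 2425 CPM under ad libitum feeding. Most arrhythmic libraries were below the ad libitum range, and some lay within it. The difference was -0.39 ± 0.10 for arrhythmic over ad libitum feeding (edgeR adjusted p = 0.0324), the 1 member called of 74, beside 1.44% of all genes called lower, 0.661% called higher and 2.1% either way, and without the 5 libraries it was -0.38 (adjusted p = 0.0284). The call of Rplp1 was lost in 14 of 86 alternatives, 72 of which left out 1 library, with an adjusted p of up to 0.475 in edgeR or DESeq2. Its own row held 64.7% of the CPM it shares with copies. Rpl19 followed and did not pass (edgeR adjusted p = 0.172). The partners of Rplp1 in the stalk were not called in any pair: Rplp0 averaged 281 CPM under incompletely adapted arrhythmic, 281 CPM under arrhythmic, 291 CPM under night-restricted and 303 CPM under ad libitum feeding, and Rplp2 483, 490, 427 and 444 CPM in the same paradigms. Rpsa, a 40S protein also known as a laminin receptor, differed by -0.39 ± 0.13 for arrhythmic over night-restricted feeding (edgeR adjusted p = 0.0517).

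Set against ad libitum feeding, night-restricted feeding had 1 of 74 members higher (1.35%, beside 0.724% of all genes) and 0 lower (beside 0.897%, and 1.62% either way). It was Rpl22, an RNA-binding 60S protein, with 547 ± 73 CPM under night-restricted and 456 ± 70 CPM under ad libitum feeding (SD, n = 18 each) and a difference of 0.33 ± 0.09 (edgeR adjusted p = 0.0437). Rpl27a and Rps20 followed and did not pass (adjusted p = 0.0574 and 0.123). Without the 5 libraries Rpl22 did not pass (0.18, adjusted p = 0.419), and Rps21 and Rps28 did. With a term for GC slope Rpl22 and Rpl27a passed (0.25 and 0.17, edgeR adjusted p = 0.0263 and 0.0409), and Rps21 and Rps28 did not. Between incompletely adapted arrhythmic and arrhythmic feeding 0 of 74 members differed, beside 0% of all genes, with 0 members at an unadjusted p under 0.05 in edgeR and 0 in DESeq2. Rpl37a, Rpl15 and Rpsa led there, each at an adjusted p of 0.981, and the 74 estimates lay between -0.23 and 0.33 log2.

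The paralogs outside the symbol rule showed courses of their own under night-restricted feeding. Rpl22l1, the paralog of Rpl22, had a range of 1.10 ± 0.27 with a peak at ZT12.4 (edgeR adjusted p = 0.00459), whereas Rpl22 had 0.26 ± 0.18 (adjusted p = 0.497). Rpl7l1, the paralog of Rpl7 with a known part in the assembly of the large subunit, had 0.94 ± 0.21 with a peak at ZT21.3 (edgeR adjusted p = 0.00186), whereas Rpl7 had 0.24 ± 0.15 (adjusted p = 0.387). Both were still called when the 5 libraries were left out (0.67, edgeR adjusted p = 0.0405 for Rpl22l1, and 0.87, adjusted p = 0.00503 for Rpl7l1). Whether the ranges of 2 paralogs differ was not tested. Rpl36al and Rpl36a were not called rhythmic (edgeR adjusted p = 0.0654 and 0.434).

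Of 13 other ribosome components listed, 8 were tested. Rack1, a scaffold on the 40S head, was lower in both arrhythmic paradigms than under night-restricted feeding, by -0.31 ± 0.06 log2 for incompletely adapted arrhythmic (edgeR adjusted p = 0.000482) and -0.28 ± 0.06 for arrhythmic feeding (adjusted p = 0.00320). Rps27rt, a further copy of Rps27, was also lower in both (-0.42 ± 0.08 and -0.37 ± 0.08), and Rpl36al was lower under incompletely adapted arrhythmic feeding (-0.48 ± 0.15, edgeR adjusted p = 0.0229). Rack1 without the 5 libraries was still lower in both (-0.27 and -0.25, edgeR adjusted p = 0.0154 and 0.0273), Rps27rt was lower under incompletely adapted arrhythmic feeding alone (adjusted p = 0.0333, and 0.0779 for arrhythmic feeding), and Rpl36al did not pass (adjusted p = 0.556). With all libraries Fau, Rps3a1 and the row Rps4l were called in none of the tests against night-restricted feeding.

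The genes that act around the ribosome were read against the same background of 29.9% of genes rhythmic under night-restricted feeding. Of 22 tested genes of mTORC1 and TOP mRNA control 8 were rhythmic there. Mtor, the kinase itself, had a range of 1.34 ± 0.20 with a peak at ZT10.5 (edgeR adjusted p = 2.06e-06), Tsc1, an inhibitor of the pathway, 1.12 ± 0.18 with a peak at ZT3.0 (adjusted p = 1.91e-05), and Eif4ebp2, a repressor of cap-dependent translation, 1.02 ± 0.20 with a peak at ZT7.5 (adjusted p = 0.000353). Mtor, Tsc1 and the mTORC1 subunit gene Akt1s1 differed in rhythm between arrhythmic and night-restricted feeding (edgeR adjusted p = 0.0278, 0.00431 and 0.0310). Without the 5 libraries 10 of the 22 were rhythmic, beside 23.6% of all genes, with Mtor, Tsc1 and Eif4ebp2 at 1.25, 1.01 and 1.27, and the rhythm difference passed for Tsc1 (adjusted p = 0.00303) and Eif4ebp2 (adjusted p = 0.0216) but not for Mtor and Akt1s1 (adjusted p = 0.0756 and 0.105). Of the 7 noncoding snoRNA host genes, whose transcripts also open with a TOP motif, 4 were rhythmic, with Snhg12 at 1.02 ± 0.20 and a peak at ZT9.5 (edgeR adjusted p = 0.000276), Snhg5 and Snhg3 next, while Gas5 had a range of 0.09 ± 0.13 (adjusted p = 0.837). Of the 7, 2 were rhythmic without the 5 libraries, Snhg12 and Snhg5.

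Of 36 initiation factor genes 13 were rhythmic under night-restricted feeding, led by Eif4g2, Eif1 and Eif4b, with ranges of 0.77, 1.06 and 0.84. Of 9 elongation factor genes 2 were, Eef2, the translocase, and its kinase Eef2k, and Eef2k was also called under incompletely adapted arrhythmic feeding, at 1.0 ± 0.23 (edgeR adjusted p = 0.00831). Of 11 genes of RNA polymerase I and its factors 2 were, Polr1d and Polr1c. Of 77 tested mitochondrial ribosomal protein genes 16 were (led by Mrpl34, Mrps18a and Mrps15), with a median range of 0.46 beside 0.44 for the cytosolic members and 0.70 for all genes. In mean level 16 mitochondrial ribosomal protein genes were lower and 3 higher under incompletely adapted arrhythmic than under night-restricted feeding, beside 11.2% and 6.85% of all genes, and 5 were lower and 1 higher under arrhythmic than under night-restricted feeding, beside 5.16% and 1.76%. Without the 5 libraries 8 initiation factor, 0 elongation factor, 3 RNA polymerase I and 11 mitochondrial ribosomal protein genes were rhythmic under night-restricted feeding, beside 23.6% of all genes. No mitochondrial ribosomal protein gene then differed in mean level in either pair (0 of 77, beside 1.11% of all genes for incompletely adapted arrhythmic and 0.747% for arrhythmic against night-restricted feeding), and Eef2k was still called under incompletely adapted arrhythmic feeding (0.92, edgeR adjusted p = 0.0335).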

How the data were processed

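The authors deposited raw read counts per gene for 72 liver libraries. STAR 2.4.2a and the builds GRCm38.p5 and mm10 are listed, per the submitters' processing notes; per the labels' protocols, libraries were made with a QuantSeq 3′ kit. Which tool counted reads, with which strand setting, is not given in the sources used here. All columns were mapped to samples, with 0 left out. Symbols and positions came from GENCODE M21 (GRCm38), and 193 identifiers had no symbol.

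Counts were tested in edgeR 4.0.16 (R 4.3.3): filterByExpr over 24 groups of paradigm and time, TMM, and 1 robust quasi-likelihood fit over all libraries with a mean, cosine and sine per paradigm at a period of 24 h, Benjamini-Hochberg over 12712 genes, threshold 0.05. SEs of ranges came from the delta method. CPM were computed from a library's share of all its counts. DESeq2 1.42.0 was an alternative. The procedure was tested on simulated counts drawn independently for each library, without replicate or GC effects, so that test does not cover such effects. Total counts of 4342026 to 12286021 set the precision of low genes.

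Members, lists and tests were chosen with earlier results of these data known. Named were the members of smallest p (5 per rhythm test, 3 per other test), paralogs, stalk genes and Rpsa, and the levels at both ends; 2 members that this rule or a list would name are not reported here by name or row, and stay in all counts. Outside that rule, Rps21, Rpl32, Rps9, Rpl23, Rpl5, Rpl39, Rps23, Rps28, Rpl18, Rpl8 and Rps7 were named after their values were seen. Copies summed was an alternative added after the data were seen. Samples with the same replicate number were not treated as paired: between paradigms their deviations correlated at -0.57 to 0.69. Only between arrhythmic and ad libitum feeding were all 3 correlations above 0.1 (0.338 to 0.607), and there the block changed no count of members.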

Additional observations from a re-analysis of the deposited data

Results flagged for a closer look

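A test of the difference in rhythm itself picked out 3 of 74 members between arrhythmic and night-restricted feeding (4.05%, beside 3.89% of all genes), and 0 without the 5 libraries of extreme GC slope (beside 2.46%). Rpl14 (edgeR adjusted p = 0.0359), Rpl27a (adjusted p = 0.0389) and Rpl26 (adjusted p = 0.0485) passed with all 72 libraries. The sizes were 1.40, 0.71 and 1.20 on the log2 scale. Over 87 alternatives the call was kept in 69 for Rpl14, 64 for Rpl27a and 32 for Rpl26, with adjusted p of up to 0.597, 0.431 and 0.531 in edgeR or DESeq2. Of the 87, 72 left out 1 library each and kept the normalization of all libraries, so they differ little from the main fit. None of the 3 calls was kept with a term for GC slope, without the 5 libraries or without all of replicate 1. Of these genes Rpl26 held 56.6% of the CPM it shares with copies in its own row, while Rpl14 and Rpl27a shared no window with another row.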

How the results depend on the processing

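Counts of members called depended on libraries and settings. A count given below without the share of all genes does not separate a change in the members from a change in all genes. With no filter on low counts 9 members were rhythmic under night-restricted feeding, 0 differed in rhythm and 7 in mean level between arrhythmic and night-restricted feeding, and 0 in mean level in both pairs with ad libitum feeding. DESeq2 gave 7 rhythm differences between arrhythmic and night-restricted feeding and 2 mean level differences between night-restricted and ad libitum feeding; RLE factors and summed copies also gave 2 for the last. Library totals alone gave 0 rhythm differences for arrhythmic and 1 for incompletely adapted arrhythmic against night-restricted feeding. With GC slope as a covariate these were 1 and 1, 18 members were rhythmic under night-restricted feeding (beside 33.2% of all genes), and mean level differences numbered 13 for arrhythmic against night-restricted, 6 for incompletely adapted arrhythmic against night-restricted (beside 4.78%), 5 for arrhythmic against ad libitum and 2 for night-restricted against ad libitum feeding. Without the 5 libraries of extreme GC slope 7 members were rhythmic under night-restricted feeding, 0 differed in rhythm and 3 in mean level between arrhythmic and night-restricted feeding, 2 in mean level between incompletely adapted arrhythmic and night-restricted and 2 between night-restricted and ad libitum feeding. With only the paradigms compared in the fit, and so fewer libraries, 3 were rhythmic, 0 differed in rhythm between arrhythmic and night-restricted and 0 in mean level between night-restricted and ad libitum feeding. With time as a factor 2 were rhythmic and 0 differed in rhythm between arrhythmic and night-restricted feeding. The cause of these changes was not tested. With copies' rows added the share of counts was 3.94%, and by paradigm 3.83% (incompletely adapted arrhythmic), 3.84% (arrhythmic), 4.16% (night-restricted) and 3.93% (ad libitum).

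The replicate block kept 18 rhythmic members under night-restricted feeding and gave 2 rhythm differences and 14 mean level differences for arrhythmic, and 23 mean level differences for incompletely adapted arrhythmic, against night-restricted feeding. A replicate block within each paradigm gave 29 rhythmic members under night-restricted (39.2%, beside 41.9% of all genes), 1 under ad libitum (beside 14.1%) and 1 under arrhythmic feeding (beside 6%), 11 rhythm differences between arrhythmic and night-restricted feeding (beside 17.9%), and mean level differences of 34 (incompletely adapted arrhythmic against night-restricted, beside 31.9%), 2 (arrhythmic feeding against ad libitum) and 3 (night-restricted against ad libitum). Pairs of libraries with the same number in the same paradigm had a median correlation of deviations of 0.242, those with another number there -0.116 and those with the same number in other paradigms -0.0165.

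Over all fits that left out a replicate number or 1 library, rhythmic members numbered 3 to 22 under night-restricted (beside 17.6% and 37.3% of all genes) and 0 to 1 under ad libitum feeding, and 0 in both arrhythmic paradigms. Rhythm differences numbered 0 to 8 between arrhythmic and night-restricted feeding (beside 0.275% and 9.94%) and 0 in the other pairs. Mean level differences numbered 2 to 43 (incompletely adapted arrhythmic against night-restricted, beside 0.456% and 49% of all genes), 5 to 17 (the same for arrhythmic, beside 1.12% and 8.28%), 0 to 2 (arrhythmic against ad libitum), 0 to 16 (night-restricted against ad libitum, beside 0.307% and 6.95%) and 0 to 3 (incompletely adapted arrhythmic against arrhythmic). Without replicate 1 the night-restricted count was 3 (Rpl4, Rps27l and Rps9). Of single libraries, leaving out night-restricted ZT02 replicate 1 gave 11 rhythmic members, and leaving out night-restricted ZT18 replicate 1 gave 8 mean level and 8 rhythm differences between arrhythmic and night-restricted feeding.

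Over the alternatives 7 single values turned round. With copies summed Rpl19 had ranges of 0.24 under night-restricted and 0.15 under incompletely adapted arrhythmic feeding, a mean level difference of 0.059 for arrhythmic over night-restricted feeding and a rhythm difference of 0.023 between night-restricted and ad libitum feeding, and Rpl15 a mean level difference of -0.10 for incompletely adapted arrhythmic over arrhythmic feeding. With a replicate number left out, that difference lay between -0.32 and 0.87 for Rpl15 and between -0.10 and 0.41 for Rpsa. Members of low level, such as Rpl15 at 10.6 CPM, rest on fewer counts than the others, and Rpl15 also had 3.7% of the summed CPM in its own row.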
